A study of Mus musculus with 5 samples.

Results

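The genes described here encode subunits of respiratory complex I, the NADH dehydrogenase of the mitochondrial inner membrane, as read in whole blood of female mice. They were taken by symbol: Ndufa, Ndufb, Ndufc, Ndufs or Ndufv followed by a number, or Ndufab1, on probe sets annotated with exactly 1 gene symbol. The rule used no measured value and found 35 genes on 77 probe sets, among 18193 genes with such a probe set. Each gene stands for its probe set with the highest mean over the arrays.

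The study profiled whole blood of adult female first-generation animals of 2 outcrosses, to find basal differences in expression between the genotypes. The parents were AKR/J and FVB/NJ for 2 arrays (AKRxFVB F1), and DBA/2J and FVB/NJ for 3 arrays (DBAxFVB F1), so FVB/NJ is shared by both crosses and no group is an inbred parent. No treatment other than Avertin anaesthesia is labelled, and the blood came from cardiac puncture. Whether each array of a cross is a different animal is not labelled, so the p-values measure only the spread between arrays, and that spread may be technical. With this number of arrays precision is limited, and an exact permutation test of a single gene cannot go below a p of 0.1. Whole blood mixes red cells, platelets and leukocytes, and fewer cells of a type cannot be told apart from less RNA per cell.

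Complex I takes electrons from NADH and passes them to ubiquinone while pumping protons out of the mitochondrial matrix. It has a matrix arm, which holds the flavin and the iron-sulfur clusters, and a membrane arm, which pumps. A small set of core subunits does the catalysis. Some of the core is encoded in the mitochondrial genome and the rest in the nucleus, while the many accessory subunits are all nuclear and serve assembly and stability. Lymphocytes, monocytes and platelets carry mitochondria, neutrophils carry few, and mature red cells have lost them.

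The values are log2 expression levels, and differences are DBAxFVB F1 minus AKRxFVB F1 on that scale, with limma's moderated standard error (SE). Testing covered probe sets whose mean level was at least 2.51, the median of all probe sets. Of the 35 genes, 33 passed this filter, with mean levels from 2.71 to 8.24 and a median of 4.07, against 3.32 for all genes tested. The genes that did not pass, Ndufb10 and Ndufb4, had means of 2.46 and 2.35. Ndufb4, a distal membrane arm subunit, had the lowest level of the family, with 2.25 and 2.41 in AKRxFVB F1 and an overlapping 2.14, 2.41 and 2.52 in DBAxFVB F1. Ndufs6 and Ndufa11 had no probe set with 1 symbol in the annotation used here and were not analysed.

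No complex I gene passed the test between the crosses. Over all 22519 probe sets, limma called 0 (0%) at an adjusted p below 0.05, and 2337 had an unadjusted p below 0.05. The smallest adjusted p of a member was 0.152. More members read lower than higher in DBAxFVB F1 blood: 26 of 33 (78.8%) were lower and 7 higher, where 41.7% of all 12421 genes tested were lower. The median difference was -0.25 over the members and 0.05 over all genes. After quantile normalization 20 members were lower and after cyclic loess normalization 22, with medians of -0.18 and -0.25. At an unadjusted p below 0.05 there were 4 members lower, against 6.4% of all genes, and 0 members higher, against 3.61%. In 9 members every DBAxFVB F1 array lay below every AKRxFVB F1 array, which 11.9% of all genes did. The reverse held for 1 member, Ndufb1, and for 17% of all genes.

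The arrays of a cross often differed among themselves by more than the crosses did. The gap between the AKRxFVB F1 arrays exceeded the difference between the crosses in 15 of 33 members, and the range of the DBAxFVB F1 arrays exceeded it in 26. Relative to each gene's mean over the arrays, AKRxFVB F1 arrays 1 and 2 had member medians of 0.10 and 0.22, and DBAxFVB F1 arrays 1 to 3 had -0.02, -0.09 and -0.09. AKRxFVB F1 array 2 gave the highest value in 15 members. The lowest value fell on DBAxFVB F1 array 2 in 11 members and on array 3 in 10. The genes that were low on those arrays were not of the same brightness, as the map of array values shows.

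**Figure D1:**
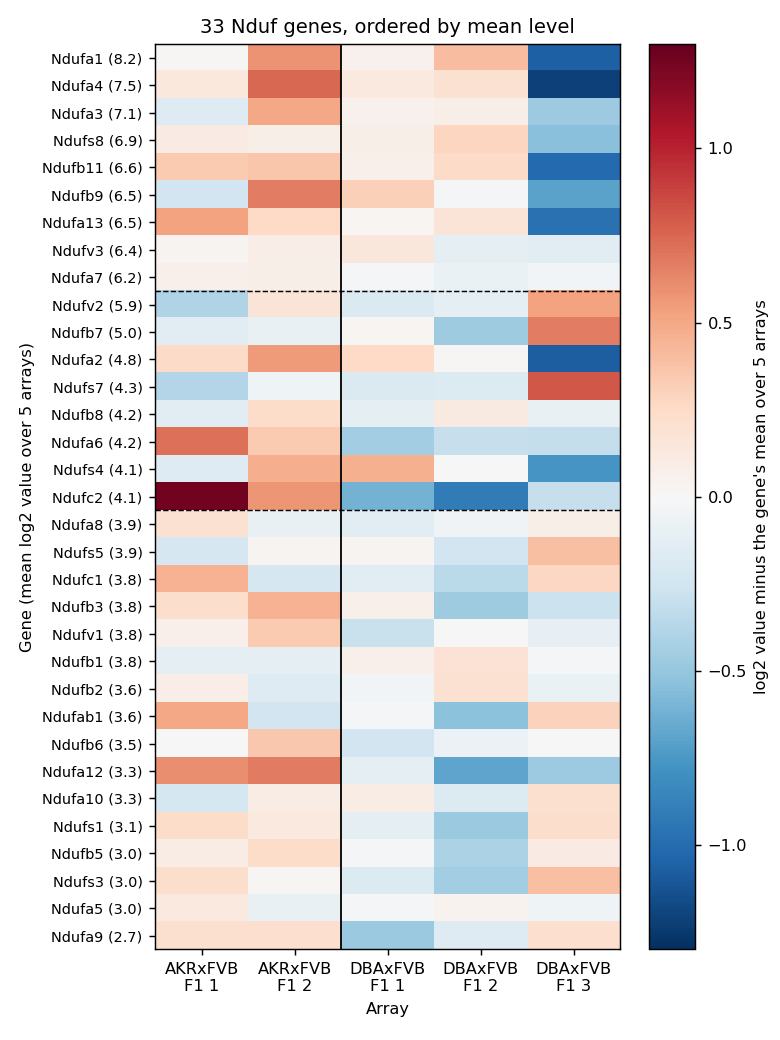
Each row is 1 of the 33 tested genes, ordered by its mean log2 level (in brackets), and each column 1 array; colour gives the log2 value minus the gene's mean over the 5 arrays. The vertical line separates the 2 AKRxFVB F1 arrays from the 3 DBAxFVB F1 arrays, and the dashed lines mark mean levels of 6 and 4. In the top block 8 of 9 genes have their lowest value on DBAxFVB F1 array 3; in the bottom block of 16 genes none does.

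The core subunits of the nuclear genome gave no common direction. Of the 6 that were tested, 4 were lower and 2 higher, 0 at an unadjusted p below 0.05, with a median of -0.18. Quantile and cyclic loess normalization left 3 of 6 lower. Ndufv1, which binds NADH and the flavin, read 3.88 and 4.15 in AKRxFVB F1 and 3.52, 3.82 and 3.70 in DBAxFVB F1. Among the probe sets that stand for the core genes, that of Ndufv1 is the one whose crosses did not overlap. Its difference was -0.33 ± 0.20 (SE, limma adjusted p = 0.599). The other tested probe set of Ndufv1 differed by 0.13 ± 0.16, with overlap. With the mean of its tested probe sets the difference was -0.10. Ndufs1, the largest subunit and carrier of several iron-sulfur clusters, read 3.35 and 3.23 against 3.0, 2.63 and 3.34, a difference of -0.30 ± 0.22 in which array 3 reached the AKRxFVB F1 values. Ndufs3, near the start of the assembly pathway, read 3.19 and 2.98 against 2.78, 2.51 and 3.35, a difference of -0.20 ± 0.25. In Ndufs3 as in Ndufs1, arrays 1 and 2 of DBAxFVB F1 lay below both AKRxFVB F1 arrays and array 3 did not.

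Ndufs8, a carrier of a pair of iron-sulfur clusters, was the brightest core subunit, at 7.05 and 7.01 against 7.01, 7.22 and 6.40. Its difference of -0.15 ± 0.35 came with a low array 3, and it was 0.29 after quantile and 0.14 after cyclic loess normalization. Ndufv2, the partner of Ndufv1 at the NADH site, read 5.54 and 6.10 against 5.75, 5.81 and 6.45, a difference of 0.18 ± 0.34. Ndufs7, which holds the last iron-sulfur cluster before the quinone, read 3.90 and 4.23 against 4.09, 4.10 and 5.08. Its difference of 0.36 ± 0.34 (limma adjusted p = 0.73) was the highest of any member, and without array 3 it was 0.03. For both Ndufv2 and Ndufs7 the highest value of the 5 arrays was on DBAxFVB F1 array 3, and the crosses overlapped.

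The accessory subunits of the matrix arm were all lower in the deposited values. All 9 tested genes had a negative difference, from -1.07 to -0.02 with a median of -0.25, and 2 of them had an unadjusted p below 0.05. After quantile or cyclic loess normalization 7 of 9 were lower, and Ndufa7 and Ndufv3 were higher. Ndufa12, a paralogue of the assembly factor Ndufaf2, read 3.95 and 4.03 in AKRxFVB F1 and 3.23, 2.66 and 2.87 in DBAxFVB F1. The crosses were separate, with a difference of -1.07 ± 0.20 (SE; limma adjusted p = 0.16). Ndufa6, an LYR-motif subunit that holds the acyl carrier protein Ndufab1, read 4.94 and 4.57 against 3.78, 3.93 and 3.92. All DBAxFVB F1 arrays lay close together below the AKRxFVB F1 arrays, at a difference of -0.88 ± 0.21 (limma adjusted p = 0.226).

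Ndufa9, which sits beside the quinone site, read 2.91 and 2.93 against 2.23, 2.54 and 2.93, a difference of -0.36 ± 0.21 (limma adjusted p = 0.6). Its DBAxFVB F1 arrays 1 and 2 were low, array 3 equalled the AKRxFVB F1 level, and the AKRxFVB F1 values were near the filter. Of the 6 other matrix arm genes, Ndufa7 had separate crosses but a difference of only -0.12 ± 0.27 on its brightest probe set. That probe set read 6.31 and 6.32 against 6.23, 6.16 and 6.21. Over the 5 tested probe sets of Ndufa7 the differences ran from -0.73 to -0.11. Ndufa2, Ndufs4, which is needed for a stable NADH-binding module, Ndufab1, Ndufv3 and Ndufa5 overlapped, at differences of -0.67 ± 0.40, -0.25 ± 0.37, -0.21 ± 0.31, -0.10 ± 0.28 and -0.02 ± 0.15. In Ndufa2 and Ndufs4 the lowest value was on DBAxFVB F1 array 3, at 3.71 and 3.35. Without that array Ndufa2 was at -0.27 and Ndufs4 at 0.08.

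The accessory subunits of the proximal membrane arm held the largest difference of the family. Of 8 tested genes, 6 were lower and 2 higher, 1 of them at an unadjusted p below 0.05, with a median of -0.24. Quantile normalization left 4 of 8 lower and cyclic loess normalization 5. Ndufc2, a small membrane subunit, read 5.33 and 4.65 in AKRxFVB F1 and 3.46, 3.16 and 3.77 in DBAxFVB F1. The crosses were separate by a gap wider than the spread of either, and the difference was -1.52 ± 0.28 (SE; limma adjusted p = 0.152). Ndufa1, an X-linked subunit and the brightest of the family, read 8.25 and 8.82 against 8.30, 8.64 and 7.18. DBAxFVB F1 arrays 1 and 2 lay within the AKRxFVB F1 range and array 3 far below it; the difference was -0.49 ± 0.50, or 0.00494 after quantile normalization.

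Ndufs5 and Ndufa10 were the members of the proximal membrane arm that read higher. Ndufs5, an intermembrane-space subunit, read 3.65 and 3.91 against 3.91, 3.63 and 4.27, a difference of 0.15 ± 0.24. Ndufa10, a nucleoside kinase-like subunit, read 3.06 and 3.39 against 3.40, 3.12 and 3.50, a difference of 0.11 ± 0.19. In both the crosses overlapped. Ndufa13, also studied as the cell death gene Grim19, was at 7.0 and 6.74 against 6.51, 6.64 and 5.51, with separate crosses and a difference of -0.65 ± 0.40. Without DBAxFVB F1 array 3 that difference was -0.29. Ndufa3, Ndufc1 and Ndufa8 overlapped, at -0.28 ± 0.36, -0.19 ± 0.27 and -0.09 ± 0.19. After quantile and cyclic loess normalization Ndufa3 turned to 0.21 and 0.02.

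The distal membrane arm held both directions. Of its 9 tested genes, 6 were lower and 3 higher, 1 at an unadjusted p below 0.05, with a median of -0.28, and quantile normalization left 5 lower. Ndufb3, a single-pass membrane subunit, read 4.05 and 4.27 in AKRxFVB F1 and 3.88, 3.35 and 3.54 in DBAxFVB F1. Its crosses were separate, with a difference of -0.57 ± 0.22 (SE; limma adjusted p = 0.427). Ndufb1 read 3.68 on both AKRxFVB F1 arrays against 3.86, 3.98 and 3.78 in DBAxFVB F1, the only member with every DBAxFVB F1 array above. That difference was 0.19 ± 0.18 (limma adjusted p = 0.727). Ndufb7, an intermembrane-space subunit, read 4.91 and 4.95 against 5.07, 4.58 and 5.71, a difference of 0.19 ± 0.35 whose sign turned to -0.10 without array 3.

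Ndufb11 and Ndufb6 had separate crosses as well, at -0.58 ± 0.42 and -0.29 ± 0.19. The X-linked Ndufb11 read 6.91 and 6.93 against 6.65, 6.83 and 5.57, so most of its difference lay on array 3, and without that array it was -0.19. Ndufb9, Ndufb5, Ndufb8 and Ndufb2 overlapped, at -0.35 ± 0.42, -0.28 ± 0.19, -0.08 ± 0.22 and 0.07 ± 0.19, and Ndufb9 was at 0.02 after quantile normalization. Ndufa4, named as a complex I subunit and now placed in complex IV, read 7.65 and 8.27 against 7.64, 7.72 and 6.31, a difference of -0.74 ± 0.50 with overlap, or -0.28 without array 3. Without Ndufa4, 25 of 32 members were lower and the median was -0.23.

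**Figure D2:**
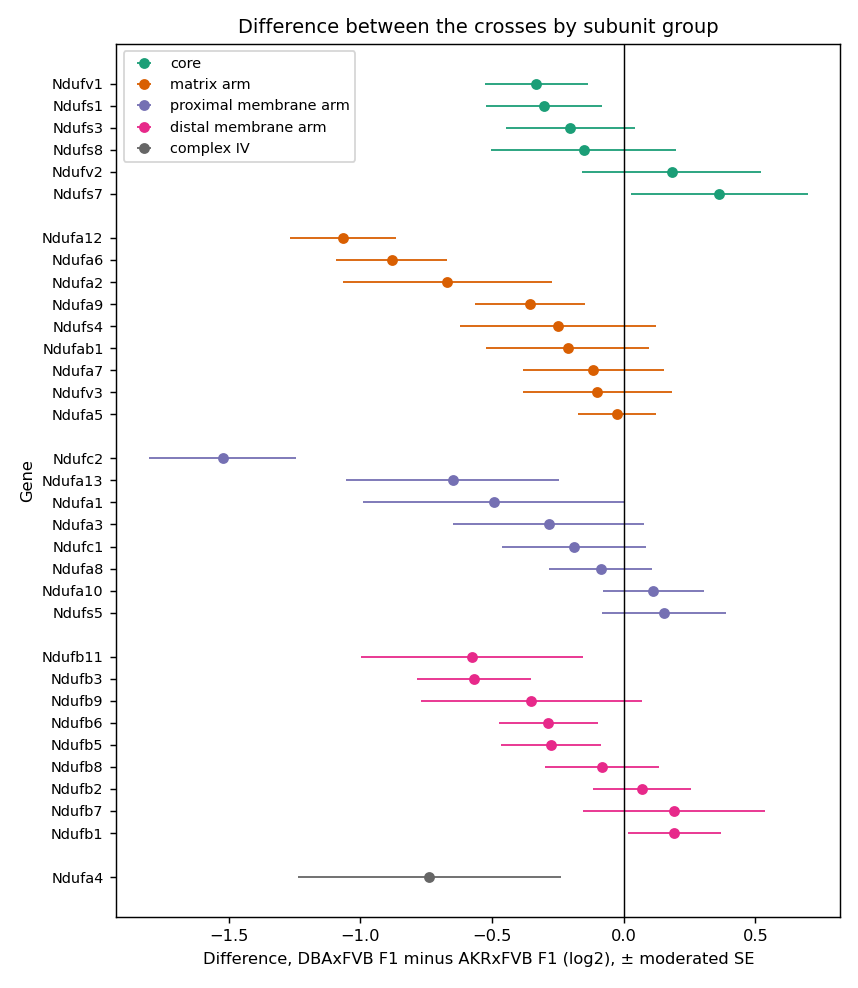
Points are the limma differences of the 33 tested genes on the log2 scale, DBAxFVB F1 minus AKRxFVB F1, with bars of 1 moderated SE, ordered within the subunit groups; 2 arrays stand against 3. The matrix arm genes all lie left of 0 in the deposited values, Ndufc2 at -1.52 is farthest from 0, and the highest is Ndufs7 at 0.36.

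A fold of 2 or more, a difference past 1 on this scale, was read for Ndufc2 and Ndufa12, both lower, and for 0 members in the other direction. With the mean of all their tested probe sets the differences were -0.42 and -0.50, short of that fold. The sequence just before the annotated start of these genes and of Ndufa6 is shown because they had the 3 smallest p-values of the family. It comes from RefSeq on GRCm38.p6 and runs 5′ to 3′ on the gene's strand, 250 bases up to the start. Capitals mark letters of the motifs searched. The windows are chr7:97399753-97400002 on the plus strand for Ndufc2, chr10:94198785-94199034 on the plus strand for Ndufa12 and chr15:82354292-82354541 on the minus strand for Ndufa6.
Ndufc2: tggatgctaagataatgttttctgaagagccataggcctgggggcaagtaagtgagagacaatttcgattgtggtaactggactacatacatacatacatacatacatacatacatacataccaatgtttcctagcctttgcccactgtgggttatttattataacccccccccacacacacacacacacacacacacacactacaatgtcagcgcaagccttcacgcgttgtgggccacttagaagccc
Ndufa12: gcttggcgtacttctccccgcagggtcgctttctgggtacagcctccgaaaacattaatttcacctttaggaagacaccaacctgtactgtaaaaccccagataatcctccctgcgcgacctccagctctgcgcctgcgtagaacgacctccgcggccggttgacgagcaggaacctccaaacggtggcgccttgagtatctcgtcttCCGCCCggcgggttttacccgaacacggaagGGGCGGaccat
Ndufa6: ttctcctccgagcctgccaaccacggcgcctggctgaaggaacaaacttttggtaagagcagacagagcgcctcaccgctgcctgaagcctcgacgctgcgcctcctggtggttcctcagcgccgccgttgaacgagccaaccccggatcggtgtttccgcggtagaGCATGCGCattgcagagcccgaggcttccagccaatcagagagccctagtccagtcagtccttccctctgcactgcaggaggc
Ndufc2 holds none of the motifs and carries runs of short repeats. Ndufa12 has 2 matches to the Sp1 letters, the left of them on the opposite strand, and Ndufa6 has 1 match to the NRF1 core, besides a Sp1 match after its start that lies outside the bases shown. The sequence is that of the reference strain, so it does not show the alleles of the 3 parental strains.

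The motifs were the NRF1 core GCATGCGC, the ETS letters CCGGAAG bound by the nuclear respiratory factor GABP, the YY1 letters AAGATGGCG and the Sp1 letters GGGCGG. They were searched on both strands of 300 bases, 250 before and 50 after each start, in the 32 members with a promoter in the table and in all 32851 promoters of it, which include those of noncoding genes. Members were counted by gene, with a match in any of its promoters, whereas the share over all promoters counts each promoter, so the units differ. No motif's letters contain another's. The NRF1 core was found in 2 members, Ndufa6 and Ndufa8 (6.25%, against 2.71% of all promoters). ETS letters were found in 4 (12.5% against 8.86%), and Sp1 letters in 15 (46.9% against 35.7%). YY1 letters were found in Ndufa9, Ndufc1, Ndufs4 and Ndufs7 (12.5% against 1.4%), in each case within the 50 bases after the start. Those 4 genes had differences of -0.36, -0.19, -0.25 and 0.36, so they did not share a direction. A match describes letters and does not show that a factor binds there.

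Many of the genes have several probe sets, and these did not always give the same answer. Of the 15 members with more than 1 tested probe set, 6 agreed in sign across theirs and 9 did not. All probe sets were lower for Ndufa12, Ndufa5, Ndufa7 and Ndufb11, and all were higher for Ndufa10 and Ndufb7. Over the 62 tested probe sets of the family, 46 were lower and 16 higher. At an unadjusted p below 0.05 there were 7 lower and 0 higher, beside 6.79% and 3.59% of all 22519 probe sets.

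Ndufc2 had the widest disagreement. Its 3 other probe sets differed by -0.17 ± 0.24, -0.25 ± 0.33 and 0.25 ± 0.20 (SE), all with overlapping crosses, so the difference of -1.52 rests on 1 of 4 probe sets. Ndufa12 showed the same order with less contrast, at -1.07, -0.28 and -0.17. Ndufv2 went the other way: a second probe set read 4.73 and 4.85 in AKRxFVB F1 against 3.28, 3.62 and 4.23 in DBAxFVB F1, separate crosses with a difference of -1.08 ± 0.29 (limma adjusted p = 0.262), whereas the brightest probe set gave 0.18. Probe sets of Ndufs8 ran from -0.66 to 0.40 and those of Ndufs7 from -0.49 to 0.36. Among the probe sets that stand for a gene, 5 carry the suffix x and 4 the suffix s, which mark probes that can also match other transcripts. Those of Ndufa12, Ndufs8 and Ndufv2 have the suffix x, and that of Ndufc2 the suffix s.

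**Figure D3:**
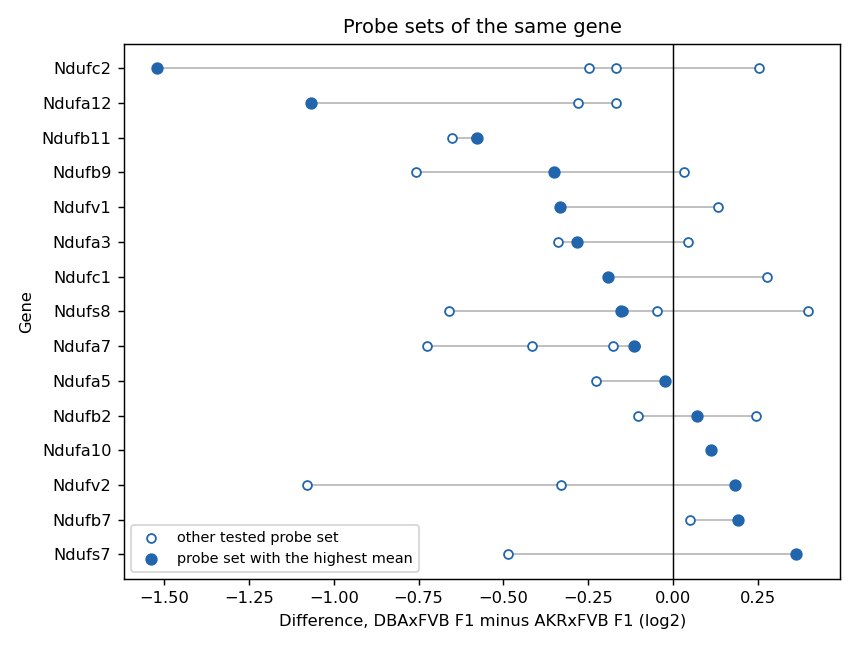
Each row is 1 of the 15 genes with more than 1 tested probe set; circles give the log2 difference, DBAxFVB F1 minus AKRxFVB F1, of each probe set, filled for the one with the highest mean. The 2 circles of Ndufa10 coincide. Ndufc2 spans -1.52 to 0.25 and Ndufv2 -1.08 to 0.18, across 0, while the 3 probe sets of Ndufb11 lie between -0.65 and -0.58.

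How a member differed between the arrays went with how bright it was. The 9 members with a mean level of 6 or more were all lower in DBAxFVB F1 in the deposited values (median -0.35), and 8 of them had their lowest value on DBAxFVB F1 array 3. Their median lay -0.70 from the mean on that array and at 0.06, 0.36, 0.07 and 0.16 on AKRxFVB F1 arrays 1 and 2 and DBAxFVB F1 arrays 1 and 2. All 778 genes of that brightness gave nearly the same profile, at -0.70 on array 3, with 79.4% of them lower, a median of -0.42, and 70.8% of them lowest on that array. After quantile normalization 3 of the 9 bright members were lower and after cyclic loess normalization 5, with medians of 0.02 and -0.09. DBAxFVB F1 array 3 also had a median of 7.99 over 18 hybridisation control probe sets, against 10.01 to 10.12 on the remaining arrays. Its 3-prime probe sets exceeded the 5-prime ones, a gap that widens as RNA degrades, by 1.32 for Actb and 1.33 for Gapdh. On AKRxFVB F1 arrays 1 and 2 the gaps were 1.22 and 1.03 for Actb and 1.04 and 0.73 for Gapdh. On DBAxFVB F1 arrays 1 and 2 they were 0.82 and 0.68 for Actb and 0.62 and 0.58 for Gapdh. With array 3 left out, both gaps were thus still wider on the AKRxFVB F1 arrays than on the DBAxFVB F1 arrays. The part of these array properties in the members' values was not tested.

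Dim members read differently across the arrays from all dim genes together. Among the 16 members with a mean below 4, 12 (75%) were lower with a median of -0.21, and 12 were lower after each of the 3 normalizations tried. Of all 8946 genes in that range, 36.7% were lower with a median of 0.08. Within the range the 2 sets were not matched in level, with median levels of 3.55 for the members and 3.02 for all genes. By array, the dim members had medians of 0.16 and 0.07 in AKRxFVB F1 and of -0.07, -0.21 and 0.09 in DBAxFVB F1, so here array 3 was not low. Of the 8 members between 4 and 6, 5 were lower, with a median of -0.16, beside 47.4% and 0.02 for all 2697 genes there. These are descriptions of a list of genes that share arrays and RNA, with no test of the list.

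**Figure D4:**
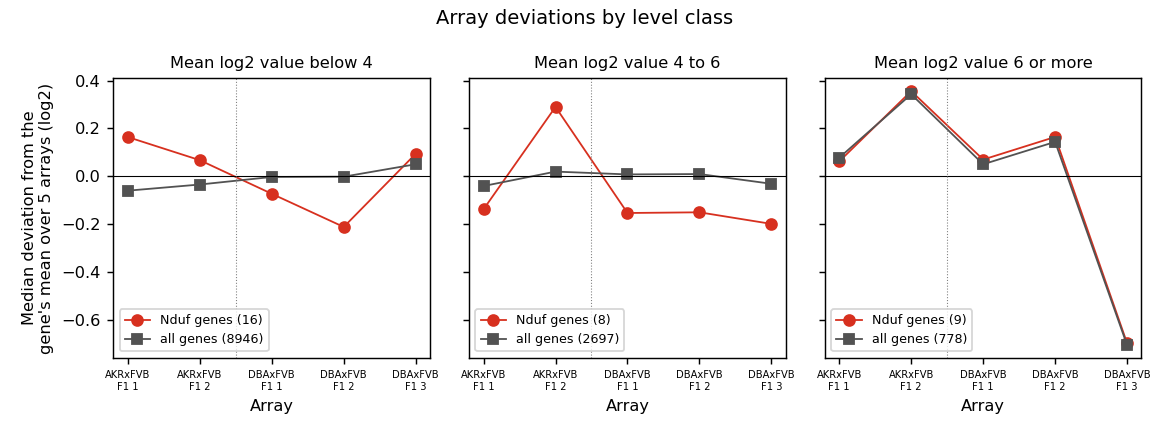
Lines give, for each of the 5 arrays, the median deviation of genes from their own mean over the arrays (log2), for complex I members (red circles) and for all tested genes (grey squares), in 3 classes of mean level. The lines almost coincide in the brightest class, at -0.70 on DBAxFVB F1 array 3, and differ in the class below 4, where the members fall to -0.21 on DBAxFVB F1 array 2.

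Without DBAxFVB F1 array 3, 27 of 33 members were lower, the median difference was -0.15, and 7 members were lower at an unadjusted p below 0.05, against 7.27% of all genes. Those were Ndufc2 at -1.68, Ndufa12 at -1.04, Ndufa6 at -0.90, Ndufa9 and Ndufb3 at -0.54, Ndufs1 at -0.48 and Ndufs3 at -0.44. Their smallest limma adjusted p was 0.104, so 0 passed. The bright members had a median of -0.10 in that fit and all bright genes -0.06. The dim members had a median of -0.35, with 13 of 16 lower, and all dim genes 0.05.

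The other genes of the respiratory chain gave the following values. ND5, a proton-pumping core subunit that the mitochondrial genome encodes, was the only mitochondrially encoded member of complex I with a probe set. It read 10.08 and 9.09 in AKRxFVB F1 against 8.25, 7.96 and 7.78 in DBAxFVB F1, separate crosses with a difference of -1.59 ± 0.41 (SE; limma adjusted p = 0.246). ND5 was high on AKRxFVB F1 array 1 above all, and its DBAxFVB F1 arrays differed by less than the AKRxFVB F1 arrays did. Of the complex I assembly factors, which build the enzyme and are not part of it, 8 of 18 passed the filter. They divided into 4 lower and 4 higher with a median of 0.03 and 0 at an unadjusted p below 0.05. Dmac1, a distal membrane arm assembly factor, differed by -0.42 ± 0.23, and Nubpl, which delivers iron-sulfur clusters, by 0.23 ± 0.15.

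**Figure D5:**
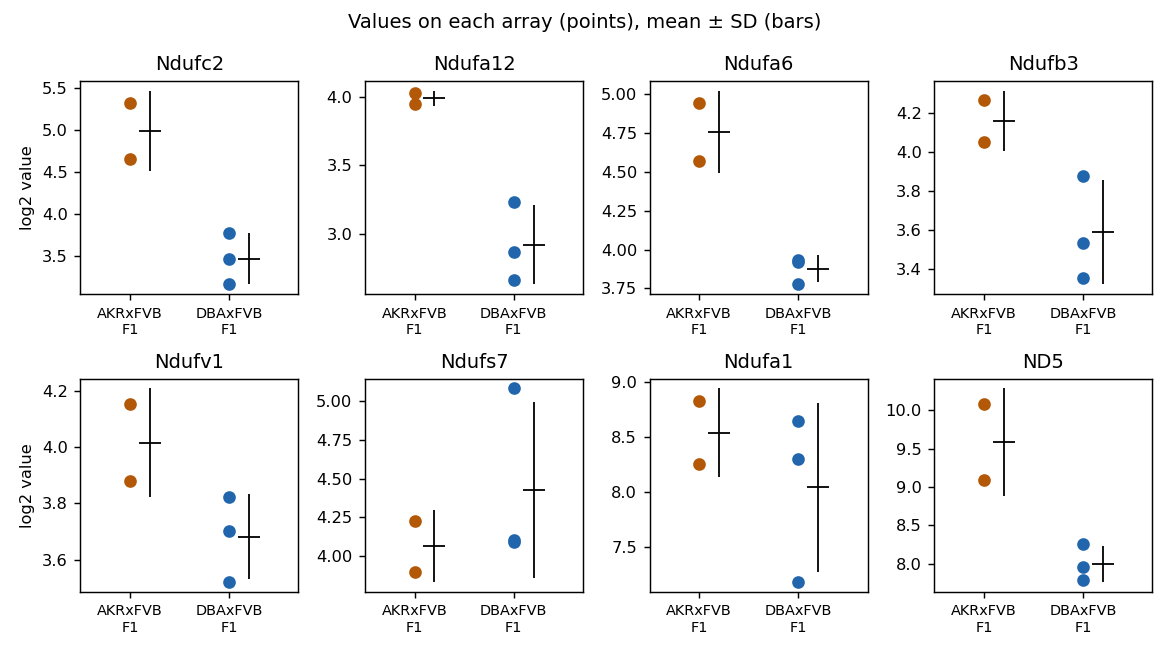
Points are the log2 values on each array for 7 members and the mitochondrially encoded ND5, with the mean ± SD of each cross beside them (2 AKRxFVB F1 arrays, 3 DBAxFVB F1 arrays); each panel has its own axis, which does not start at 0. The crosses are separate in the top row, in Ndufv1 and in ND5, and overlap in Ndufs7 and Ndufa1, where DBAxFVB F1 array 3 stands apart.

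Complex II, the succinate dehydrogenase, had 3 of 4 genes lower, with its catalytic subunit Sdha at -0.59 ± 0.21 (SE) and Sdhd at -0.18 ± 0.15. Complexes III to V had 29 of 33 genes lower and a median of -0.40. At an unadjusted p below 0.05, 6 were lower and 0 higher, against 6.4% and 3.61% of all genes tested. The list's median level of 6.74 was above that of complex I, and 23 of the 33 were lowest on DBAxFVB F1 array 3. Of all 778 genes with a mean level of 6 or more, 79.4% were lower, with a median of -0.42, and 88 were lower at an unadjusted p below 0.05. The ATP synthase ring gene Atp5g3 differed by -1.43 ± 0.40 and the complex III gene Uqcrb by -1.19 ± 0.36, with limma adjusted p of 0.28 and 0.321. Complex I thus had a lower share of genes below AKRxFVB F1 than complexes III to V in these values, 78.8% beside 87.9%, and the difference between the lists was not tested.

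Among 13 regulators of mitochondrial biogenesis, 10 were tested, 5 lower and 5 higher, with a median of 0.006. Yy1, a zinc finger factor that binds promoters of respiratory genes, read 5.18 and 5.08 against 4.04, 3.86 and 3.24, separate crosses with a difference of -1.42 ± 0.27 (SE; limma adjusted p = 0.16). Nfe2l2, the regulator of antioxidant genes, differed by -0.85 ± 0.21. Of 14 genes for other mitochondrial proteins, such as import and carrier proteins, 12 were lower with a median of -0.76. At an unadjusted p below 0.05, 6 were lower, against 6.4% of all genes tested. Their array medians were 0.62 and 0.19 on AKRxFVB F1 arrays 1 and 2 and -0.12, -0.31 and -0.26 on DBAxFVB F1 arrays 1 to 3. AKRxFVB F1 array 1 gave the highest value in 11 of the 14. Tomm20, an import receptor, differed by -1.44 ± 0.29, and the adenine nucleotide carrier gene Slc25a5 by -1.13 ± 0.29. None of these genes passed over all probe sets.

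Markers of blood cells moved between the arrays too. Of the B cell markers 6 of 7 were lower in DBAxFVB F1, with a list median of -0.63 and array medians of 0.92, -0.06, -0.65, -0.38 and 0.08 in the order of AKRxFVB F1 1 and 2 and DBAxFVB F1 1 to 3. T cell markers had 7 of 8 lower, a median of -0.35, and array medians of 0.04, 0.30, 0.18, -0.29 and -0.20. Platelet markers had 7 of 8 lower and a median of -0.47, with array medians of -0.39, 0.81, 0.17, 0.37 and -1.23. Of these 8, 6 were lowest on DBAxFVB F1 array 3 and 2 on AKRxFVB F1 array 1. The platelet list was itself bright, with a median level of 7.20. Of all 778 genes with a mean level of 6 or more, 70.8% were lowest on DBAxFVB F1 array 3. Neutrophil markers had 3 of 6 lower, monocyte markers 4 of 7 and erythroid markers 2 of 6, with medians of -0.04, -0.22 and 0.03. Defining markers of blood were present, with Alas2, the erythroid enzyme of haem synthesis, at a mean level of 13.5 and the platelet chemokine gene Pf4 at 10.1. Cardiac muscle markers, which a heart puncture could bring in, lay at mean levels of 2.68 to 3.40 in the 5 of 10 that passed the filter. Actc1 and Myl2 were higher in DBAxFVB F1, by 0.75 ± 0.27 and 0.78 ± 0.34. They were the 2 of the list at an unadjusted p below 0.05, and 3.61% of all genes tested were higher at that p. In both, every DBAxFVB F1 array lay above every AKRxFVB F1 array, which held for 17% of all genes tested. Myh6, Tnni3 and Nppa also had every DBAxFVB F1 array above. Their mean levels of 2.35, 2.46 and 2.43 lay below the filter, and they were not tested. In the other cardiac markers the crosses overlapped. The array medians of the tested cardiac markers, in the same order, were -0.13, -0.16, 0.05, -0.12 and 0.06. Skeletal muscle markers had 3 of 5 lower and a median of -0.14. The part of cell composition in the members' values was not tested.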

How the data were processed

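Total RNA of whole blood was extracted with Trizol, amplified in 2 cycles and biotin-labelled, per the labels' protocols. The values that the authors deposited, 1 for each probe set on each array, are normalized and were taken as log2 because of their range. MAS5 and RMA are named, per the submitters' processing notes. Which of them gave the values, and how low signals were treated, is not given in the sources used here. Folds of dim genes may thus be compressed or otherwise distorted, in a direction that is not known.

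The table held 45101 probe sets, 64 of them controls, which were left out; 34958 had 1 gene symbol in the platform annotation, 932 several and 9211 none. By gene identifier, 34741 symbols of non-control probe sets matched a GRCm38.p6 gene table, and 0 changed. Probe sets with a mean of at least 2.51 (22519) entered a fit in R 4.3.3 by limma 3.58.1 (lmFit, eBayes with a variance trend, 3 residual degrees of freedom), cross as the only term, with Benjamini-Hochberg adjustment over all of them; the step was tested on simulated data. All 5 arrays entered. Samples were grouped by the cross in their source label.

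Given with every array's value were the core subunits, the 6 members with the smallest p in each direction, the brightest and dimmest member and up to 4 members whose probe sets disagreed most; other members appear by group. Ndufa2, Ndufa7, Ndufa13, Ndufb11, Ndufs4 and Ndufa4 were given further values after theirs were seen. From the other respiratory and regulator lists up to 2 genes of smallest p were named. Slc25a5, Alas2, Pf4, Actc1 and Myl2 come from the further lists. So do Myh6, Tnni3 and Nppa, which were named after their values were seen. The members, lists and level classes were chosen with earlier results of these data known. Alternatives were 3 further normalizations, other filters and variance models, array weights, a replicate block, each array left out, and the mean of a gene's probe sets; the list without Ndufa4 was added after seeing the data. Python 3.11.15 with pandas 2.3.3 and matplotlib 3.10.9 made the tables and plots.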

Additional observations from a re-analysis of the deposited data

How the results depend on the processing

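In every setting run, limma called 0 probe sets and 0 complex I genes. The median difference of the members was -0.18 after quantile normalization and -0.15 with the replicate block, and ran from -0.27 to -0.15 with 1 array left out; members at an unadjusted p below 0.05 ran from 3 to 7 (7 without DBAxFVB F1 array 3). Those lower ran from 20 after quantile normalization to 27. For the 16 tested genes that the naming rule chose, 168 differences came from settings that can move a difference. Of these, 153 kept their direction and 15 reversed. The 168 are not independent. The replicate block repeats the differences of the fit without DBAxFVB F1 array 3, and median centring moves every difference by the same -0.043. Ndufs8 reversed to 0.29 after quantile and 0.14 after cyclic loess normalization and Ndufa1 to 0.00494 after quantile normalization; with the block Ndufs8 was 0.087, Ndufb7 -0.105, Ndufs5 -0.015 and Ndufv2 -0.042. With the mean of all probe sets Ndufs7 was -0.062 and Ndufv2 -0.41. With 1 array left out the ranges were -0.052 to 0.28 for Ndufa10, -0.105 to 0.46 for Ndufb7, -0.015 to 0.31 for Ndufs5, -0.32 to 0.087 for Ndufs8 and -0.10 to 0.46 for Ndufv2. Apart from the arrays and normalizations themselves, the cause was not tested. Over left-out arrays and normalizations 16 of 33 members kept 1 sign, 14 of them lower. Same-numbered arrays had deviation correlations of -0.26 and 0.17, which do not show that the numbers pair them; with 2 AKRxFVB F1 arrays, whose deviations mirror each other, this check cannot show whether a litter or day was shared. Array 3 of DBAxFVB F1 has no partner, so the replicate block gives the differences without it, with 6 members at an unadjusted p below 0.05. Low levels near the filter and 2 arrays against 3 limit what could be called.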
